A study of Equus caballus with 4 samples.

Results

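The mRNA of 10 mTOR and AKT signalling genes was compared between equine satellite cells (ESC) treated with HMB and control cells. The genes were *MTOR*, *RPTOR*, *RHEB*, *TSC1*, *TSC2*, *DDIT4*, *RPS6KB1*, *EIF4EBP1*, *AKT1* and *AKT2*. They were found by their symbols in the array annotation, and all 10 were present, out of 14594 genes with a symbol. Together they had 18 probes among the 43603 probes of the array, and all 18 were bright enough to be tested.

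The kinase mTOR joins signals from amino acids, growth factors, energy and stress, and as mTOR complex 1 (mTORC1) it drives protein synthesis and restrains autophagy. Growth factors reach it through PI3K and the AKT kinases, which hold back the TSC complex, while leucine and other amino acids act through the Rag GTPases at the lysosome. In skeletal muscle the pathway is known for its part in fibre growth and in the response to leucine, of which HMB is a metabolite. The activity of the pathway is set largely by phosphorylation and by the place of its proteins in the cell, neither of which an mRNA array measures.

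The cells came from the semitendinosus muscle of colts aged 6 months, 6 of which were sampled. They were differentiated in medium with 2% horse serum for 48 h, after which the treated cells received HMB for 24 h while control cells stayed in that medium, and RNA of both was taken on day 3. Each culture of satellite cells was divided between both groups. The dose is given as 50 µM in the methods of the study and as 50 µg in the treatment text of the sample records. Each of 4 arrays, all on 1 slide, compared treated cells in Cy5 with control cells in Cy3. This order was never swapped, so an effect of the dye on a probe cannot be told apart from an effect of HMB. The sample descriptions number the arrays as biological replicates 1 to 4, yet all of them then name the Cy5 cells GO-treated and end in the same replicate number. The sample titles, source names and treatment text name HMB, and the groups and array numbers used here are those of the titles. Also, which cultures stand behind an array, and whether both of its samples come from the same culture, is not given in the sources used here.

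The value of a probe is the log2 ratio of HMB-treated over control cells, so that a positive value means more mRNA with HMB. By array, 65.0, 64.8, 66.9 and 63.5% of the spots stood well above background in Cy3, and in Cy5 66.4, 66.5, 65.2 and 64.2% did. The mean of the 4 ratios was tested against 0 with limma, two-sided, and *P* values were adjusted by the Benjamini and Hochberg method over all 27383 tested probes, with a threshold of 0.05. With 4 arrays, the *P* values measure the spread between these samples only. The smallest *P* an exact sign-flip permutation test could reach here is 0.125. A gene with several probes is represented by its brightest tested probe, and positions are those the files give on the EquCab1 genome, for which no map of exons and untranslated regions was used here.

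Of the 10 genes, 1 passed the threshold, *RPTOR*, which was higher in HMB-treated cells. Over all tested genes 22.6% passed (2200 of 9734), 11.4% being higher and 11.2% lower. None of the 10 genes was lower past the threshold in the limma test. Without adjustment, *RPTOR* was again the 1 gene with a *P* under 0.05 in that test, against 38.4% of all tested genes. In the methods' t-test 0 of the 10 genes passed after adjustment, against 2.27% of all tested genes, and without adjustment 1 did, *AKT2*, against 30.4%. By probe, 1 of the 18 passed, compared with 22.8% of all tested probes (6257 of 27383). In this fit the share of these genes that passed was not above that of the array as a whole. Centred on the tested probes without lowess, 3 of the 10 genes passed, beside 26.1% of all tested probes. With the authors' lowess, the mean log2 ratios of the 10 genes had a median of -0.02, and those of all tested genes one of 0.03.

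**Figure D1:**
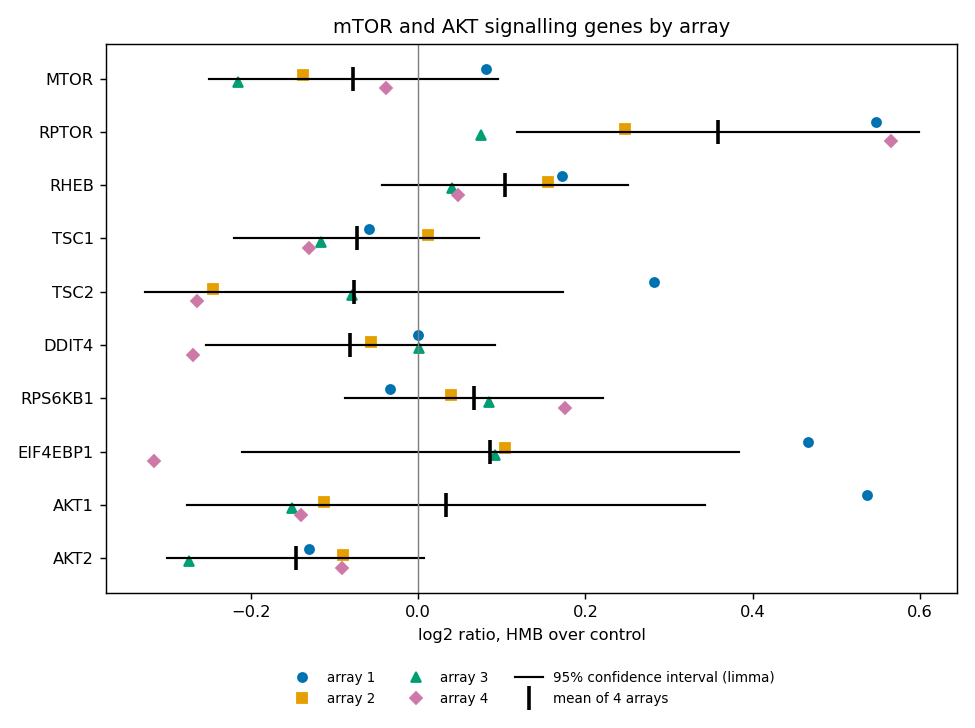
Log2 ratio of HMB-treated over control cells (horizontal axis) for the brightest tested probe of each of the 10 genes, with a symbol for each of the 4 arrays, a vertical tick for their mean and a line for its 95% confidence interval from limma. The interval of *RPTOR* lies above 0, and those of the other 9 genes include 0.

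The mTOR kinase and the scaffold of mTORC1 come first. *MTOR* (ENSECAT00000017852, chr2:38470026-38470085, plus strand) encodes the kinase shared by both mTOR complexes. Its log2 ratios were 0.08, -0.14, -0.21 and -0.04 on arrays 1 to 4. Array 1 was above 0 and the other 3 below it. The mean was -0.08 ± 0.13 (SD, n = 4), with a 95% confidence interval from -0.25 to 0.10 and a limma adjusted *P* = 0.465. In fold terms the interval runs from 0.841 to 1.07. The mean moved to -0.13 without array 1 and to -0.031 without array 3.

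*RPTOR* (ENSECAT00000019239, chr11:913581-913640, minus strand) encodes raptor, the subunit that presents substrates to the kinase in mTORC1. The sequence of its probe is given because it is the 1 probe of the group that passed the threshold.
RPTOR: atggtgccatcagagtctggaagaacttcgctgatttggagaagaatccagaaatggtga
The processed signal of this probe in control cells was 36.4, 43.3, 46.4 and 41.5 on arrays 1 to 4, and in HMB-treated cells it was 53.1, 51.4, 48.9 and 61.4. On every array it stood well above background in Cy3 and in Cy5. The signals of HMB-treated cells exceeded those of control cells on every array. The log2 ratios were 0.55, 0.25, 0.07 and 0.57. Arrays 1 and 4 were high and array 3 was close to 0. The mean was 0.36 ± 0.24 (SD, n = 4), a fold of 1.28 with a 95% confidence interval from 1.09 to 1.51 and a limma adjusted *P* = 0.0467. The call lies at the edge of the threshold. It was lost without array 1 (adjusted *P* = 0.122), array 2 (0.106) or array 4 (0.114), with normexp and loess (mean 0.19, adjusted *P* = 0.0796), without lowess (mean 0.24, adjusted *P* = 0.136) and in the methods' t-test (adjusted *P* = 0.175), while its adjusted *P* over all alternatives ran from 0.0440 to 0.242.

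**Figure D2:**
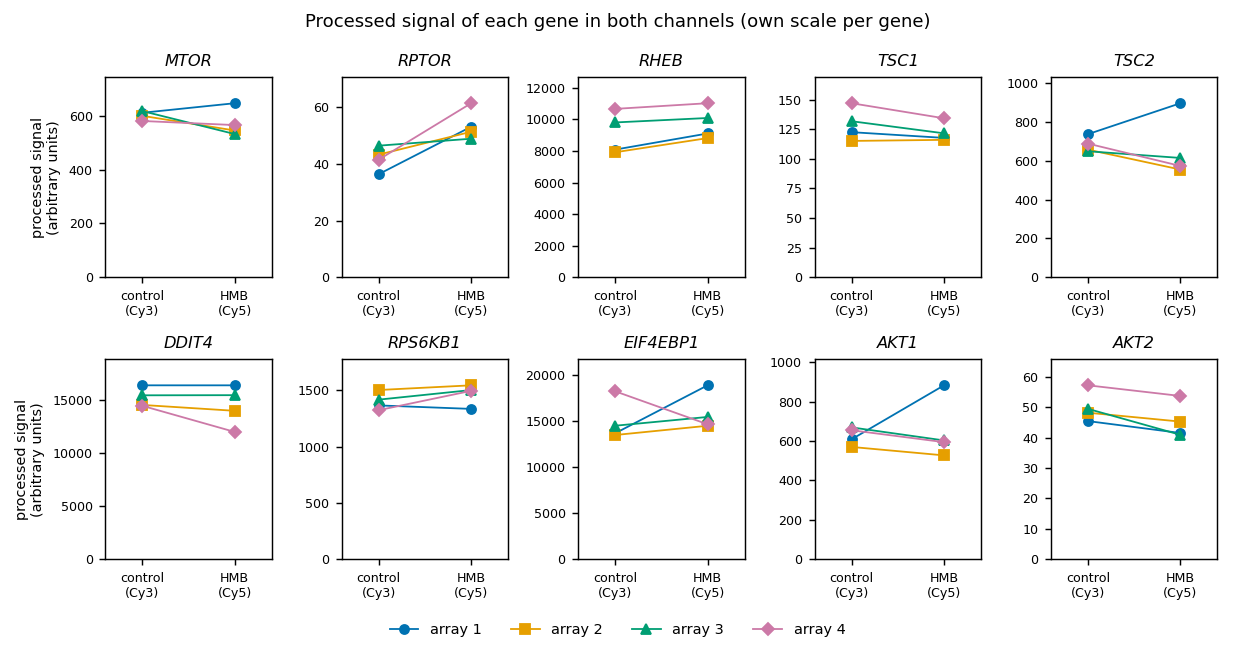
Processed signal in arbitrary units (vertical axis, own scale starting at 0 for each gene) of the brightest tested probe of each of the 10 genes, in control cells (Cy3) and HMB-treated cells (Cy5), with a line for each of the 4 arrays. The lines of *RPTOR* all rise from control to HMB and those of *AKT2* all fall, whereas *AKT1* and *TSC2* rise on array 1 and fall on the others.

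Upstream of the kinase stand RHEB and the TSC complex. *RHEB* (ENSECAT00000010460, chr4:92086072-92086131, minus strand) encodes the small GTPase that switches mTORC1 on. Its log2 ratios were 0.17, 0.16, 0.04 and 0.05 on arrays 1 to 4. All 4 were above 0, the first pair of arrays more so than the second. The mean was 0.10 ± 0.07 (SD, n = 4), with a limma adjusted *P* = 0.259. Its 95% confidence interval ran from -0.04 to 0.25. Without lowess *RHEB* passed the threshold, at a mean of 0.29 and an adjusted *P* = 0.0247, the lowest over its alternatives, the highest being 0.669.

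*TSC1* and *TSC2* encode the partners of the complex that turns RHEB off, TSC2 being the part that acts on the GTPase and TSC1 the part that stabilises it. The log2 ratios of *TSC1* (ENSECAT00000010430, chr25:3446942-3447001, plus strand) were -0.06, 0.01, -0.12 and -0.13, with a mean of -0.07 ± 0.06 (SD, n = 4; limma adjusted *P* = 0.412). Those of *TSC2* (ENSECAT00000023657, on an unplaced sequence from 73883700 to 73883828) were 0.28, -0.24, -0.08 and -0.26. Array 1 was high for *TSC2* and the other 3 arrays were below 0, whereas *TSC1* was near 0 or below it on every array. The mean of *TSC2* was -0.08 ± 0.25 (SD, n = 4; limma adjusted *P* = 0.624), with a 95% confidence interval from -0.33 to 0.17. The mean of *TSC2* rested on single arrays, being -0.20 without array 1 (adjusted *P* = 0.114), -0.020 without array 2 and -0.014 without array 4, whereas that of *TSC1* stayed between -0.10 and -0.05 whichever array was left out. The probe of *TSC2* has 60 bases and spans 129 on the genome, so that it crosses at least 1 intron.

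*DDIT4*, also known as REDD1, is induced by stress and holds back mTORC1 through the TSC complex. It had 7 probes in 2 groups of overlapping sequence, which are repeated readings of the same transcript and not replicates. The brightest (XM_001502859, chr1:59477245-59477304, plus strand) had log2 ratios of 0.00, -0.06, 0.00 and -0.27 on arrays 1 to 4. Array 4 was low and the other 3 were at or near 0, so that the mean rests largely on array 4. The mean was -0.08 ± 0.13 (SD, n = 4), with a 95% confidence interval from -0.25 to 0.09 and a limma adjusted *P* = 0.443. The 5 probes of this transcript model, which together cover 67 bases, had means from -0.11 to -0.06, and all 5 were lowest on array 4, between -0.29 and -0.26. The other 2 probes (ENSECAT00000004086), from 59476447 to 59476507 on the same chromosome, had means of -0.01 and 0.02 and were highest on array 1, at 0.23 and 0.27. Both groups were lowest on array 4, and none of the 7 probes passed the threshold, with adjusted *P* values from 0.312 to 0.925 in the limma test and no unadjusted *P* under 0.05. With normexp and loess the brightest probe had a mean of -0.15 and without lowess a mean of 0.18, so that even its direction rests on the scaling.

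Downstream of mTORC1, *RPS6KB1* and *EIF4EBP1* encode its best known substrates. *RPS6KB1*, the gene of the ribosomal S6 kinase 1, had 3 probes, and they did not give 1 answer. The brightest (XM_001503753, chr11:32691944-32692003, plus strand) had log2 ratios of -0.03, 0.04, 0.08 and 0.18 on arrays 1 to 4. It was highest on array 4. The mean was 0.07 ± 0.09 (SD, n = 4; limma adjusted *P* = 0.480), with a 95% confidence interval from -0.09 to 0.22.

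The other probes of *RPS6KB1* (ENSECAT00000014982) lie side by side between 32690674 and 32690793 on the same chromosome. One had log2 ratios of 0.15, 0.00, -0.27 and -0.86, and its neighbour had 0.35, 0.03, -0.19 and -0.76. Both were highest on array 1 and lowest on array 4, the reverse of the brightest probe. Their means were -0.25 ± 0.44 and -0.14 ± 0.47 (SD, n = 4), with limma adjusted *P* values of 0.306 and 0.577. The signals behind the low value on array 4 were 77.7 in control cells and 42.8 in HMB-treated cells for the first of these, and in control cells it had read 41.0, 42.3 and 54.2 on arrays 1 to 3. It was thus the control signal that stood out on array 4, that of HMB-treated cells being between 42.2 and 45.4 on all arrays. The mean of all 3 probes was -0.11 (adjusted *P* = 0.510), the opposite sign of the brightest probe. No direction can therefore be given for *RPS6KB1* mRNA.

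**Figure D3:**
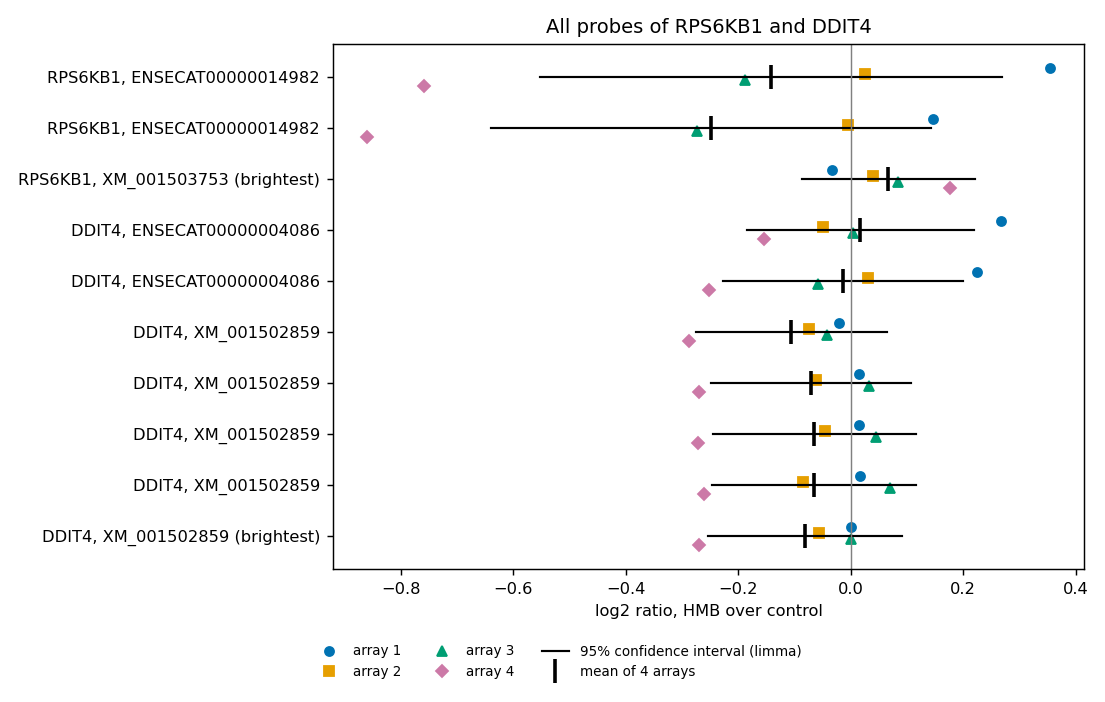
Log2 ratio of HMB-treated over control cells (horizontal axis) for the 3 probes of *RPS6KB1* and the 7 probes of *DDIT4*, named by transcript model, with a symbol for each array, a vertical tick for the mean and a line for its 95% confidence interval from limma. Array 4 lies far to the left for 2 probes of *RPS6KB1*, at -0.86 and -0.76, and to the right for the brightest, at 0.18, while every *DDIT4* probe is lowest on array 4.

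*EIF4EBP1* (ENSECAT00000016487, chr27:7010147-7010206, minus strand) encodes 4E-BP1, which binds the cap-binding protein eIF4E and blocks translation until mTORC1 phosphorylates it. Its log2 ratios were 0.47, 0.10, 0.09 and -0.32 on arrays 1 to 4. Array 1 was high, array 4 was below 0, and arrays 2 and 3 lay between them. The mean was 0.09 ± 0.32 (SD, n = 4), with a limma adjusted *P* = 0.642. Its 95% confidence interval, from -0.21 to 0.38, reached the highest value among the 9 genes that did not pass. Without array 1 the mean was -0.04, and without lowess it was 0.37 with an adjusted *P* = 0.0229, the lowest over its alternatives, the highest being 0.805.

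*AKT1* and *AKT2* encode closely related kinases that PI3K activates, *AKT2* being the one best known for insulin-driven glucose uptake. Their probes are given because they cover corresponding stretches of related genes, and capitals mark the bases that are the same in both when they are aligned without gaps.
AKT1: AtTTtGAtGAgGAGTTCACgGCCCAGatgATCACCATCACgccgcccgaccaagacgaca
AKT2: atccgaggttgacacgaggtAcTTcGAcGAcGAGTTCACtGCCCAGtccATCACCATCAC
In the 40 bases where they overlap, 32 (80.0%) are the same. Whether either probe also binds mRNA of the other gene was not tested.

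The *AKT1* probe (ENSECAT00000009000, chr24:45608534-45608881, minus strand) spans 348 bases on the genome and so crosses at least 1 intron. Its log2 ratios were 0.54, -0.11, -0.15 and -0.14 on arrays 1 to 4. Array 1 stood apart from the other 3, which lay close together below 0. The mean was 0.03 ± 0.34 (SD, n = 4; limma adjusted *P* = 0.870), and without array 1 it was -0.13 (adjusted *P* = 0.172), the range over its alternatives being 0.172 to 0.982. The signal of HMB-treated cells was 882.4 on array 1 and between 526.9 and 602.8 on the others, whereas that of control cells was between 569.8 and 668.9 on all 4.

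*AKT2* (ENSECAT00000009104, chr10:10707946-10708005, minus strand) had log2 ratios of -0.13, -0.09, -0.27 and -0.09 on arrays 1 to 4. All 4 were below 0, array 3 the most. The mean was -0.15 ± 0.09 (SD, n = 4), with a 95% confidence interval from -0.30 to 0.01 and a limma adjusted *P* = 0.145. After *RPTOR* it had the lowest adjusted *P* of the 10 genes. In fold terms the interval runs from 0.812 to 1.01. Without lowess its mean was -0.25 (adjusted *P* = 0.0509), and centred on the tested probes it passed the threshold, at -0.31 (adjusted *P* = 0.0311). The interval of *AKT1*, from -0.28 to 0.34, contains that of *AKT2* except for its lower end, and a difference between the genes was not tested.

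In order of their mean log2 ratios the genes ran from *AKT2*, *DDIT4*, *MTOR*, *TSC2* and *TSC1*, between -0.15 and -0.07, over *AKT1*, *RPS6KB1*, *EIF4EBP1* and *RHEB*, between 0.03 and 0.10, to *RPTOR* at 0.36. The intervals of all 9 neighbouring pairs in this order overlap. The arrays differed in how the genes were placed. The median over the 10 genes was 0.13, -0.02, -0.04 and -0.11 on arrays 1 to 4, with 6, 5, 5 and 3 genes above 0. Array 1 thus had the most genes above 0 and array 4 the fewest, although *RPTOR* was the highest of the 10 on both. Over all tested probes the median was between 0.01 and 0.03 on the 4 arrays, and the SD was 0.35, 0.34, 0.39 and 0.48.

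The 5 tested genes whose ratios on the 4 arrays lay closest to those of *RPTOR* were *AXL*, *DNMT1*, *GINS1*, *ODF2* and *MCM7*. Closeness was measured as the Euclidean distance over the 4 log2 ratios, among 9729 genes with all 4 values. The distances ran from 0.0735 for *AXL* to 0.0821 for *MCM7*. Like *RPTOR* these genes were high on arrays 1 and 4 and low on array 3. Their means were between 0.35 and 0.39, with adjusted *P* values from 0.0320 to 0.0482 in the limma test. As they were picked for their likeness, these values describe them and test nothing.

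Other genes of the pathway were taken from 7 lists, which hold 97 genes beside the 10. Of these, 90 were found on the array by name and 80 were tested, and 21 passed the threshold, 11 higher and 10 lower in HMB-treated cells. Their means had a median of -0.03. The share that passed was 26.3%, near the 22.6% of all tested genes. Counted as lower are *DEPTOR*, bright enough through control cells alone, and *EEF2*, whose 2 probes passed in opposite directions. The counts by list below are to be read beside the same 22.6%, and no list was tested as a set. In the methods' t-test *RRAGD* was the 1 of the 21 that passed. Of the 21 genes, 12 passed without array 1, 3 without array 2, 2 without array 3 and 11 without array 4, and *RRAGD* and *SGK1* were the 2 that passed whichever array was left out.

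Among the 10 tested genes of the mTOR complexes and their assembly, *RPTOR* was higher, and *DEPTOR*, counted above as lower, had entered the test through control cells alone. *DEPTOR* encodes an inhibitor that sits in both complexes. Its log2 ratios were -0.33, -0.38, -0.43 and -0.99 on arrays 1 to 4. It was lowest on array 4. The probe was dim, and in HMB-treated cells it was well above background on 2 of 4 arrays, against 4 of 4 in control cells. A probe that is bright enough only where it is high has to differ, so no test is given for it. The mean was -0.53, but -0.23 with normexp and loess and -0.80 without lowess. When both channels had to be well above background, 86 pathway genes were tested and 21 passed, *RPTOR* among them and *DEPTOR* not. The 5 tested genes of the TSC complex and RHEB list gave 0 calls in limma, with 0 at an unadjusted *P* under 0.05 and 0 in the methods' t-test, for which the shares of all tested genes were given above.

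For amino acid sensing at the lysosome 26 genes were tested, and 4 were higher and 4 lower. *RRAGD*, which encodes one of the Rag GTPases that bring mTORC1 to the lysosome, had the largest change of any tested gene in the 7 lists. Its probe had low signals, 58.4 to 85.5 in control cells and 31.9 to 40.0 in HMB-treated cells. On every array it was well above background in both channels. Its log2 ratios were -1.10, -1.02, -0.86 and -1.28 on arrays 1 to 4. All 4 were far below 0 and close to each other. The mean was -1.06 ± 0.17 (SD, n = 4), a fold of 0.479 with a 95% confidence interval from 0.417 to 0.549, and the limma adjusted *P* was 0.00128. With normexp and loess, which change the background correction and the normalisation together, its mean was -0.53 (adjusted *P* = 0.00273), and over its alternatives the adjusted *P* ran from 0.000643 to 0.0468.

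*RRAGB*, a Rag GTPase of the other class, was also lower on all arrays, with a mean of -0.50 ± 0.25 (SD, n = 4; limma adjusted *P* = 0.0199), and lost the call without array 2 (0.0580) or array 3 (0.0624). The sestrins bind leucine or respond to stress and restrain mTORC1. *SESN2* and *SESN1* went in opposite directions, and *SESN3* was too dim to be tested. *SESN2* had log2 ratios of 0.96, 0.47, 0.55 and 0.17 and a mean of 0.54 (limma adjusted *P* = 0.0284), and *SESN1* had -0.10, -0.32, -0.40 and -0.71 and a mean of -0.38 (adjusted *P* = 0.0420). *SESN2* was highest on array 1 and *SESN1* lowest on array 4. *SESN2* lost the call without array 1 (0.0527), array 2 (0.0790) or array 3 (0.0921) and without lowess (mean 0.38, adjusted *P* = 0.107), and with normexp and loess its mean was 0.24. *SESN1* lost it without array 2 (adjusted *P* = 0.113), array 3 (0.132) or array 4 (0.0732). The remaining 4 genes that passed, named after their values were seen, were *FNIP2*, *NPRL2* and *CASTOR2*, with means of 0.29, 0.22 and 0.21, and *DEPDC5*, with a mean of -0.31. The first 3 lost the call whichever array was left out, with adjusted *P* values from 0.0508 to 0.231, and *DEPDC5* lost it without array 2 (0.128), array 3 (0.0836) or array 4 (0.0579). With normexp and loess the mean of *CASTOR2* was 0.069 and that of *DEPDC5* was -0.13, both not past the threshold, and centred on the tested probes *CASTOR2* had 0.056. *NPRL2* also lost the call with normexp and loess (adjusted *P* = 0.0526) and centred on the tested probes (0.0598). *FNIP2* lost it without lowess (mean 0.21, adjusted *P* = 0.0694) and centred on the tested probes (0.16, adjusted *P* = 0.151), and with normexp and loess its mean was 0.18. By probe, all 3 of *FNIP2*, 2 of the 5 of *NPRL2* and 3 of the 5 of *CASTOR2* passed. The means of the *CASTOR2* probes ran from 0.07 to 0.31. As the mean of their tested probes, *NPRL2* and *CASTOR2* did not pass.

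Among mTORC1 substrates and translation outputs 17 genes were tested, and *EEF2K* and *EEF2* were lower while none was higher. *EEF2K* encodes the kinase that inhibits elongation factor 2, and *EEF2* the factor itself. *EEF2K* had a mean log2 ratio of -0.35 ± 0.14 (SD, n = 4; limma adjusted *P* = 0.0212), and lost the call without array 2 (0.0902), array 3 (0.0931) or array 4 (0.0510). The brighter probe of *EEF2* had a mean of -0.38 ± 0.25 (adjusted *P* = 0.0439), but its other probe, with a mean of 0.30, passed in the opposite direction, and without lowess the brighter probe had a mean of 0.06. No direction can be given for *EEF2*.

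From PI3K to AKT 15 genes were tested, with 2 higher and 2 lower. The higher genes were *PIK3CD* and *PIK3R1*, a catalytic and a regulatory subunit of PI3K, with means of 0.33 ± 0.13 and 0.31 ± 0.09 (SD, n = 4; limma adjusted *P* = 0.0241 and 0.0198). The lower genes were *PIK3CB*, another catalytic subunit, at -0.24 ± 0.11 (adjusted *P* = 0.0494), and *INPPL1*, which encodes a lipid phosphatase that removes the product of PI3K, at -0.31 ± 0.16 (adjusted *P* = 0.0343). All 4 lost the call without array 2 or array 3, with adjusted *P* values from 0.0619 to 0.211. Without array 1 it was lost for *PIK3CD* (0.0579), *PIK3R1* (0.0509) and *PIK3CB* (0.100), and without array 4 for *INPPL1* (0.0653). The mean of *PIK3CD* was 0.17 with normexp and loess, and centred on the tested probes it was 0.20 and lost the call (adjusted *P* = 0.0818). *PIK3CB* lost it without lowess (mean -0.18, adjusted *P* = 0.133) and centred on the tested probes (0.0591).

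The list of AKT substrates also holds *SGK1*, which is not such a substrate. Of the 9 tested genes in this list, *SGK1* and *MDM2* were higher and *FOXO1* was lower. *SGK1*, a kinase related to AKT and activated by mTORC2, had log2 ratios of 0.41, 0.37, 0.46 and 0.86 on arrays 1 to 4. It was highest on array 4 and above 0 on all. The mean was 0.52 ± 0.22 (SD, n = 4; limma adjusted *P* = 0.0145). *MDM2*, which encodes a ubiquitin ligase, had a mean of 0.32 ± 0.13 (adjusted *P* = 0.0240), and *FOXO1*, a transcription factor that AKT keeps out of the nucleus, had a mean of -0.46 ± 0.19 (adjusted *P* = 0.0150). *FOXO1* lost the call without array 2 (0.0678) or array 3 (0.0629). *MDM2* lost it without array 2 (adjusted *P* = 0.121), array 3 (0.0770) or array 4 (0.0518), and its mean was 0.050 with normexp and loess (adjusted *P* = 0.489) and 0.20 without lowess (0.114).

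Among stress-linked inhibitors of mTORC1 10 genes were tested, of which 4 were higher and 1 lower, the sestrins being counted here again. Over all tested genes 22.6% passed, and this list was not tested against that share. *TRIB3*, a pseudokinase that binds AKT, had log2 ratios of 0.63, 0.19, 0.49 and 0.62, with a mean of 0.48 ± 0.21 (SD, n = 4; limma adjusted *P* = 0.0158). *FKBP5*, which encodes a chaperone partner that binds AKT, had a mean of 0.34 ± 0.13 (adjusted *P* = 0.0215). Of the 3 tested probes of *FKBP5*, 2 passed, and the means ran from 0.07 to 0.35. *TRIB3* lost the call without array 1 (0.0504) or array 3 (0.0618), and *FKBP5* without array 2 (0.0706) or array 3 (0.0884). *DDIT4* is a member of this list and did not pass.

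**Figure D4:**
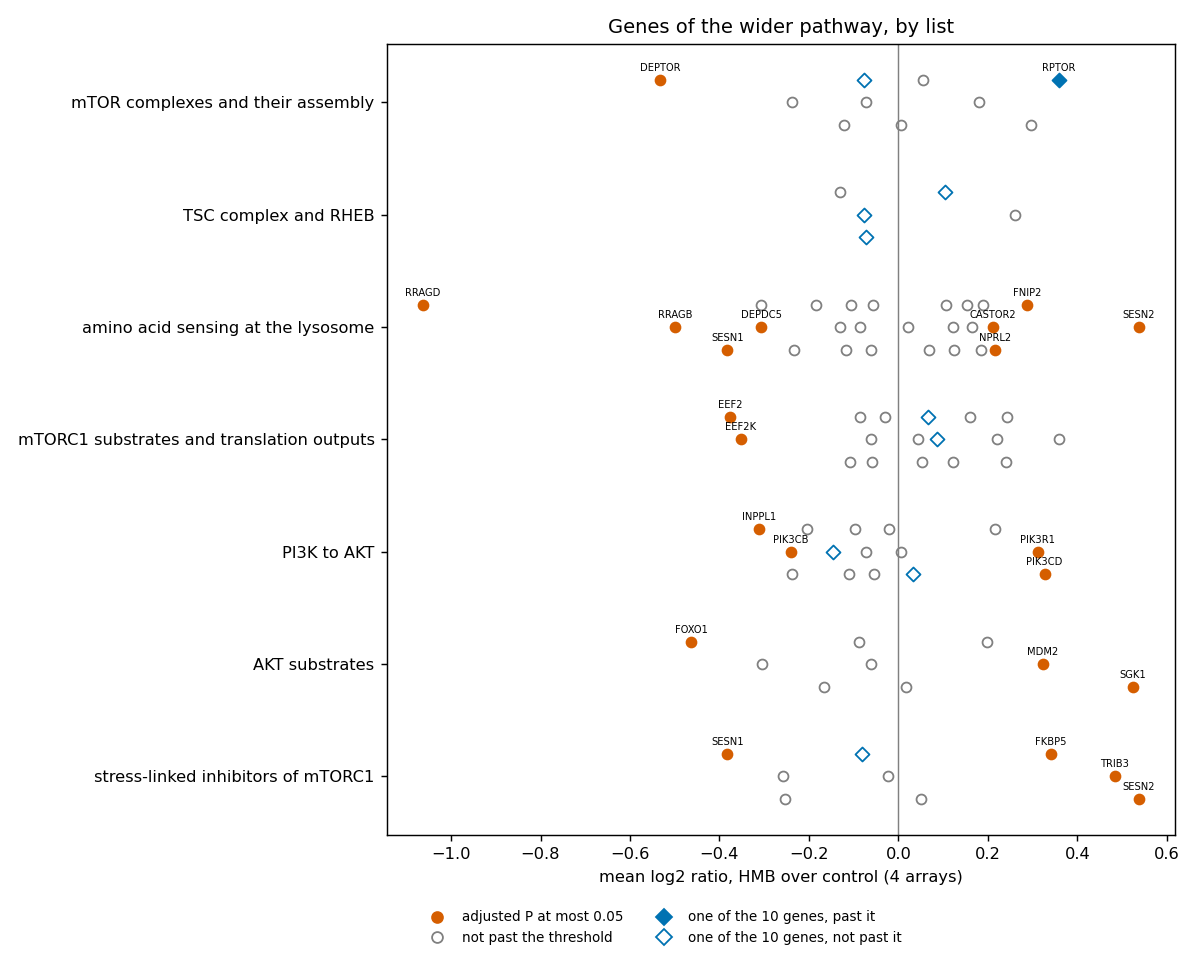
Mean log2 ratio of HMB-treated over control cells on 4 arrays (horizontal axis) for tested genes of 7 pathway lists, with filled symbols for genes past the threshold and diamonds for the 10 mTOR and AKT signalling genes. *RRAGD* lies farthest from 0, at -1.06, *RPTOR* is the filled diamond, at 0.36, and *DEPTOR* was bright enough through control cells alone.

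The labelled cell type was checked against marker genes. Of 16 markers of the skeletal muscle lineage, 15 had signals well above background on every array in Cy3 and in Cy5, *PAX7*, the marker of resting satellite cells, being the exception. Of the 15 tested, 14 were lower in HMB-treated cells past the threshold, against 11.2% of all tested genes. *MYMK*, with a mean of -0.27, was not past it. Without array 1 *MYMK* passed, at a mean of -0.38 (limma adjusted *P* = 0.0462), and without array 4 its mean was -0.17. All 15 means were below 0, with normexp and loess and without lowess as well. The brightest were *MYH3* and *ACTA1*, with means of -1.11 ± 0.47 and -0.98 ± 0.38 (SD, n = 4; limma adjusted *P* = 0.00846 and 0.00747). Without lowess they were smaller, -0.37 for *MYH3* (adjusted *P* = 0.0522, the call being lost) and -0.38 for *ACTA1* (adjusted *P* = 0.0352). In the methods' t-test 0 of the 15 passed, with adjusted *P* values of 0.105 for *MYH3* and 0.0980 for *ACTA1*. This count differs from the published result, since the study reports *MYF5*, a member of this list, as lower past its own threshold. The study also measured this gene by RT-qPCR and states that the changes overlapped those of the arrays. In the limma test here *MYF5* had a mean of -1.01 (adjusted *P* = 0.00157). The cause of the difference was not tested. The summed signal of the muscle marker list was 236744, 238798, 255101 and 266006 in control cells on arrays 1 to 4, and 174346, 124496, 115033 and 102566 in HMB-treated cells. In RNA of whole cultures, fewer cells of a type and less RNA per cell cannot be told apart, and the part of this shift in the ratios of the 10 genes was not tested.

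Of 10 fibroblast and stromal markers, 9 were well above background in both channels, *TCF21* being the exception. *PDGFRA*, with a mean of 1.53 ± 0.47 (SD, n = 4; limma adjusted *P* = 0.00358), was the 1 that passed among the 9 tested. With normexp and loess its mean was 0.89, and in the methods' t-test it did not pass (adjusted *P* = 0.0775). Of the 9 means, 4 were below 0, against 3 with normexp and loess and 1 without lowess. The brightest, *COL1A2* and *COL3A1*, had means of -0.20 and -0.21 and did not pass, but without lowess they were 0.86 and 0.75 and both passed (adjusted *P* = 0.00108 and 0.00342), as they did centred on the tested probes. The 9 tested probes of *COL1A2* all had means below 0, from -0.59 to -0.20, the brightest being the closest to 0, and 2 of them passed. Of the 7 of *COL3A1*, 2 had means below 0, the brightest among them. The brightest probes of *COL1A2* and *COL3A1* were above 0 on array 1 alone, at 0.16 and 0.33. Both were lowest on array 4, at -0.54 and -0.73. Without array 1 the mean of *COL3A1* was -0.39. The summed signal was 377524, 356456, 385315 and 496077 in control cells and 454433, 315677, 336827 and 334146 in HMB-treated cells. With HMB it was higher on array 1 and lower on the other arrays.

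Of 8 leukocyte markers 3 were well above background, and *LYZ*, *CSF1R*, *ITGAM*, *CD3E* and *CD79A* were not. The brightest were *PTPRC*, with a mean of 0.28 ± 0.13 (SD, n = 4; limma adjusted *P* = 0.0374), and *CD14*, at 0.02 ± 0.15 (adjusted *P* = 0.868). The other tested marker, *CD68*, named after its values were seen, was below 0 on every array. Its mean was -0.29 and did not pass (limma adjusted *P* = 0.120). *PTPRC* lost the call whichever array was left out (adjusted *P* from 0.0574 to 0.115) and in the methods' t-test (0.114), and its mean ran from 0.13, over all its tested probes, to 0.51, without lowess. The probes of *PTPRC* disagreed, since 2 of the 8 tested had means below 0, the lowest being -0.48. Of the 8, 7 passed the threshold, so that calls went in both directions. The summed signal of the list was between 14976 and 17198 in control cells and between 16661 and 22131 in HMB-treated cells. No endothelial marker (5 genes, the brightest being *TEK* and *CDH5*) or adipocyte marker (5 genes, the brightest being *ADIPOQ* and *LEP*) was well above background on all arrays in either channel. The part of other cell types in the ratios was not tested.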

How the data were processed

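Each of the 4 arrays carried both groups, Cy5 for HMB and Cy3 for control. Feature Extraction was run by the authors, in version 10.10.1.1 according to the file headers, while the methods give a different version. Deposited as intensity are mean signals, local backgrounds and processed signals. The log10 ratios of Cy5 to Cy3 had been dye-normalised by the authors (linear and lowess), and the deposited series values, also log10, are identical to them (largest difference 0). Further deposited columns (other) use 0 or 1 to mark spots that are bright enough, uneven, outlying or saturated.

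A factor of 3.32 brought ratios to log2. Control spots (1417 per array) and marked ones (11, 17, 32 and 15) were dropped, none was saturated, and repeated spots of 1 probe were averaged. To be tested, a probe needed 1 channel, the same throughout, well above background on each of the 4 arrays, and at least 3 values, which 16220 probes did not reach. Symbols of tested probes came from the symbol column (17032), the description (122), the gene table of RefSeq (724; assembly TB-T2T) or a list of aliases (35), and 9470 had no symbol. The fit was limma 3.58.1 in R 4.3.3, intercept only, and it was tried on simulated arrays. Other tools were Python 3.11.15 with pandas 2.3.3, numpy 2.4.6 and matplotlib 3.10.9, and data.table (version 1.17.8).

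The members and lists were chosen with earlier results of these data known. Named are the 10 genes, in each list the largest changes among further genes that passed and kept 1 sign over the arrays (at most 4), the 5 nearest genes to *RPTOR*, and the 2 brightest markers of each list. *PDGFRA*, *MYMK* and genes so described were named after their values were seen. The lists hold 1 gene whose own result is not reported here or drawn, though the counts include it.

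These were varied in turn. Normalisation: normexp (offset 50) with loess, or no lowess and each array centred on its own median. Test: the methods' t-test (the methods name the software alone, and a Student test comes from a workbook of the supplement, whose minimum fold was not applied), a robust prior with an intensity trend, or channels fitted separately, the array being a block or not. Probes: no filter, a filter on both channels, marked spots included, series values, or a gene's probes averaged. Each array was also left out in turn (at least 2 values needed). Centring on the median of the tested probes was added after seeing the data.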

Additional observations from a re-analysis of the deposited data

Results flagged for a closer look

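Among 44 tested genes that were checked, 4 had 1 array that stood far from the other 3, measured as its gap to the nearest array over the whole range of the 4 ratios and set against the critical value of Dixon's test. Among independent genes not chosen by these ratios, chance gives about 1 in 20 such genes. Many of the 44 were chosen by them, so the 4 cannot be read against that rate. For *AKT1* the share was 0.945, from a log2 ratio of 0.54 on array 1 against -0.15 to -0.11 on the others. For *DEPTOR* it was 0.840, from -0.99 on array 4 against -0.43 to -0.33, but its probe was well above background in HMB-treated cells on 2 of 4 arrays. This gap is thus a description and no test, although the 4 genes counted above include *DEPTOR*. For *FNIP2* it was 0.935, from 0.17 on array 2 against 0.32 to 0.33. For *PTPRC* it was 0.938, from 0.47 on array 1 against 0.21 to 0.22.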

How the results depend on the processing

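Over the alternatives, the number of the 10 genes past the threshold, 1, became 0 with normexp and loess, in the methods' t-test, with the intensity trend and robust prior, with no replicate block and with no filter, 2 without lowess (*RHEB* and *EIF4EBP1*), 3 when centred on the tested probes (these and *AKT2*), and 0 to 1 with an array left out; the number of their probes moved in the same way. Pathway genes past the threshold, 22 with *RPTOR*, were 1 in the methods' t-test, 4 with no replicate block, 6 with no filter and 3 to 16 with an array left out. All tested probes past it, 6257 (22.8%), were 7832 (28.6%) without lowess, 7143 (26.1%) centred on the tested probes, 768 in the methods' t-test, 2226 with no replicate block, 3690 with no filter and 2573 to 4957 with an array left out, the lowest being without array 2. Higher probes were 49.1% of the calls, but 59.2% without lowess, 46.8% centred on the tested probes, 29.9% with no replicate block and 36.4% without array 2. With the array as the replicate block the counts were those reported, the ratios being differences within arrays.

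The sign turned for *AKT1* with normexp and loess (-0.0047), when centred on the tested probes (-0.0073) and without array 1 (-0.13, against 0.095 without array 3), for *DDIT4* without lowess (0.18, or 0.13 when centred on the tested probes), for *RPS6KB1* as the mean of its probes (-0.11) and for *EIF4EBP1* without array 1 (-0.040, against 0.22 without array 4). It also turned without lowess for *EEF2* (0.062, or 0.0071 when centred on the tested probes), *COL1A2* (0.86, or 0.81) and *COL3A1* (0.75, or 0.70), and with normexp and loess for *COL1A2* (0.17), *COL3A1* (0.10) and *CD14* (-0.029, and -0.040 without array 1 against 0.084 without array 4). The causes were not tested. *MTOR*, *TSC1* and *TSC2* kept their sign and did not pass under any of the 16 alternatives.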
